A study of Mus musculus with 4 samples.

Results

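The genes described here are 10 members of the SR family of splicing factors, Srsf1, Srsf2, Srsf3, Srsf4, Srsf5, Srsf6, Srsf7, Srsf9, Srsf10 and Srsf11. They were chosen by name from the 46078 genes of the mouse gene annotation deposited with the study, and all 10 were found. Their transcripts were described from that annotation alone, and no library value chose or describes them. Srsf1 occurs there a second time, on a patch of the GRCm38 genome build, where its 7 transcripts repeat the exons of the chromosome 11 copy, so the patch copy was left out.

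The study kept bone marrow-derived macrophages of C57/BL6 mice for 6 h in a pressure chamber and sequenced their polyadenylated RNA. Cells came from Piezo1 fl/fl mice without Cre (WT in the labels) or from Piezo1 fl/fl, LysM Cre+ littermates (KO), in which Cre is expressed from a myeloid gene. Each genotype was held under static pressure or under cyclic pressure of about 15 mmHg amplitude, giving 4 groups of 1 library each, and all 4 carry the floxed alleles. M-CSF at 50 ng/mL is recorded for all 4. The labels give neither age nor how many mice a library came from. No expression value enters what follows. Depth is therefore unknown, the labelled cell type was not checked against its markers, and neither the loss of Piezo1 nor any difference between groups is reported.

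SR proteins carry an RNA recognition motif, which binds exonic sequence, and a tail rich in arginine-serine pairs (the RS domain), which recruits other splicing proteins and is phosphorylated by SRPK and CLK kinases. Many SR genes are known to limit their own output: the protein promotes a splice choice in its own RNA that brings in a premature stop codon. A stop codon that lies well upstream of the last exon junction marks an RNA for nonsense-mediated decay (NMD), the pathway in which UPF1 and the SMG proteins destroy the RNA. An exon whose inclusion has this effect is called a poison exon. In the annotation, such RNAs have the biotype nonsense-mediated decay. Transcripts of the biotype retained intron keep all or part of an intron and have no annotated coding sequence.

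The stop-carrying parts of the NMD exons show how soon each reading frame ends, so they are printed first. Each sequence runs from the first base of the exon to the stop codon, which is in capitals, and was read from the GENCODE M21 transcripts of GRCm38.
Srsf3-002 exon 4: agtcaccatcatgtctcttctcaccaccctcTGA
Srsf4-003 exon 2: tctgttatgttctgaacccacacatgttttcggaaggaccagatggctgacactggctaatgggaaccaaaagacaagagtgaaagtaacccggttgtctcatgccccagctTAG
Srsf5-010 exon 3: ggcttctctgtaTAG
Srsf6-002 exon 3: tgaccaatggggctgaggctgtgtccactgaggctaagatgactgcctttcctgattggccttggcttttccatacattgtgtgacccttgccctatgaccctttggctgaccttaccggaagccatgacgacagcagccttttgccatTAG
Srsf11-006 exon 3: ttcttttccctggttcagccTGA
Srsf11-009 exon 3: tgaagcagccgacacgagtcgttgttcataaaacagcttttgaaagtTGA
In Srsf5 the frame closes 15 bases into the exon, in Srsf11-006 after 23 and in Srsf3 after 34. In Srsf11-009 it closes after 50 bases, in Srsf4 after 115 and in Srsf6 after 152. Of these 6 exons, 5 hold a stop codon in all 3 reading frames, so that they would close any frame that entered them. The exception is the 109-base exon of Srsf11-006, with stops in 2 frames. Among all cassette exons of NMD transcripts, a class defined below, 50.2% of the 928 with a sequence had stops in all 3 frames. Not all 6 exons here belong to that class. The median length of the class was 109 bases, while the 5 exons measure 117 to 456 bases, and the part played by length was not tested.

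The 10 genes had 72 transcripts. Of these, 26 were protein-coding, 12 were classed as NMD, 22 as retained intron and 12 as processed transcript, a noncoding class. Numbers of transcripts ran from 1 in Srsf7 to 19 in Srsf11, with a median of 5.5 against 2 for all protein-coding genes. An NMD transcript was annotated for 7 of the 10 genes, against 14.4% of the 22159 protein-coding genes and 38.0% of the 6532 with at least 5 transcripts. The genes without one were Srsf7, Srsf9 and Srsf10. Since the members are few and were picked by name, these counts describe the annotation, and no test was made. The plot of transcripts by biotype shows this unevenness.

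**Figure D1:**
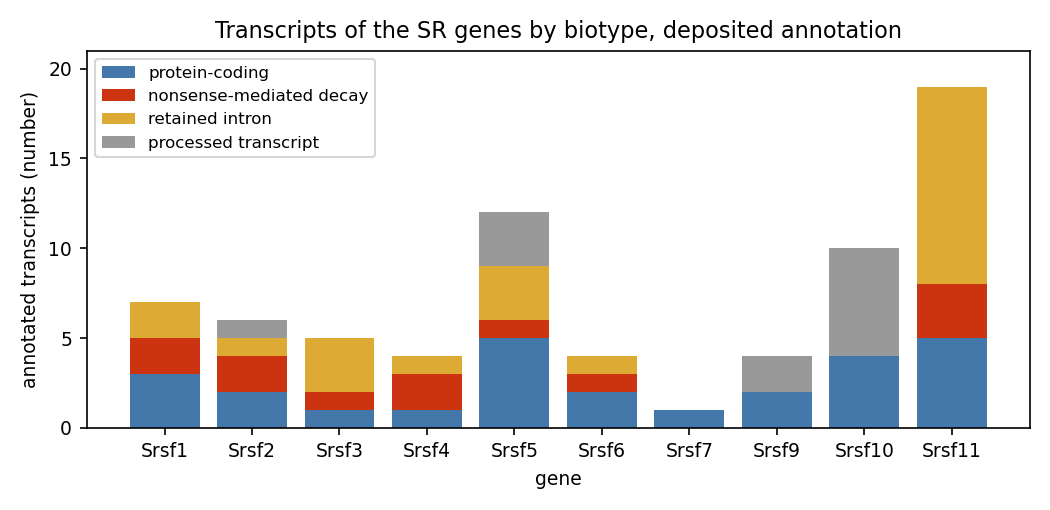
Annotated transcripts of each of the 10 SR genes (vertical axis, number), stacked by biotype, in the deposited annotation. Srsf11 has 19 transcripts, 11 of them with a retained intron, while Srsf7 has a single protein-coding one.

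Support for the NMD transcripts of the SR genes was mostly low. Support levels run from 1, where the whole structure is backed by good evidence, to 5, where it is not. Of the 12, only Srsf3-002 had level 1, whereas 33.8% of all 4941 NMD transcripts of protein-coding genes did. Level 5 was given to 6 of the 12, against 37.1%. The 5′ end was incomplete in 7 of the 12, against 27.9%, so their start codons are not annotated and their proteins were not compared.

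To find exons that mark the NMD form, an exon was called NMD-only when it shared no base with any protein-coding exon of its gene. Each SR gene also has a reference transcript here, the protein-coding transcript with the longest coding sequence. By this rule 3 of the 10 genes, Srsf3, Srsf4 and Srsf11, had 8 NMD-only exons of 109 to 456 bases. Such an exon was present in 5.44% of protein-coding genes, and in 14.3% of those with at least 5 transcripts. The 5 of Srsf4 are overlapping forms of 3 exons, so the 8 are not all separate. A stop codon lay inside 5 of the 8. Length was a multiple of 3 in 5 of the 8, so inclusion of these 5 would not by itself shift the frame. Shares over all genes were computed only for cassettes, the narrower class defined next. Of 948 cassettes, 76.5% held the stop and 31.4% had a length that is a multiple of 3. A stricter call, the cassette, asks that the exon sits between both splice sites of a protein-coding intron, and 2 genes (Srsf3 and Srsf11) met it, against 3.76% of protein-coding genes and 10.2% of those with at least 5 transcripts.

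Srsf3 encodes the smallest protein of the family and was the simplest case, with 1 coding and 1 NMD transcript. The gene (ENSMUSG00000071172) lies on the plus strand at chr17:29032673-29043366. The coding transcript, Srsf3-001, has 6 exons and 164 codons. Srsf3-002 adds a 456-base exon at chr17:29039454-29039909, inside intron 3 and 829 bases downstream of exon 3. The exon length is a multiple of 3, but the stop codon, whose last base is base 34, ends the frame. This leaves 124 codons, of which the first 114 match the full protein and 10 are new. Of the 25 arginine-serine or serine-arginine neighbours in the full protein, 4 remain before the stop, and the rest of the RS domain lies beyond it. The stop lies 548 bases before the last junction. Among the 948 cassettes of this kind in the annotation the median length was 109 bases, and 12 (1.27%) were at least as long as that of Srsf3. A stop in all 3 frames was present in 50.2% of the 928 cassettes with a sequence.

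Srsf11 (ENSMUSG00000055436, chr3:158010473-158036639, minus strand) encodes a more distant relative. Its intron 3 of 3774 bases held a pair of cassettes, of 109 bases at chr3:158024123-158024231 and of 117 bases at chr3:158023243-158023359. Srsf11-006 includes the first, Srsf11-009 the second and Srsf11-008 both. The downstream exon lies only 292 bases from exon 4. In Srsf11-008, which has a complete 5′ end, 112 codons precede the stop, against 476 in Srsf11-002, which starts at the same codon. The first 105 codons are shared, and 1 of 41 arginine-serine neighbours remains.

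Srsf4 encodes the protein with the most arginine-serine neighbours of the 10, with 106 in 491 codons. Its gene (ENSMUSG00000028911, chr4:131873617-131901706, plus strand) had the most NMD-only exons, 5 in all. They are alternative forms of 3 consecutive exons that lie together in intron 1, which spans 17336 bases. In Srsf4-003 these measured 207, 184 and 198 bases, and in Srsf4-004 they measured 188, 184 and 174. The first, at chr4:131884276-131884482 in Srsf4-003, starts 10405 bases from exon 1 and carries the stop codon of both transcripts, at 617 and 706 bases before their last junctions. Because 3 new exons follow each other, none meets the cassette rule (0 exons), while 4 lie within the intron as internal exons. Both transcripts have support level 5 and an incomplete 5′ end.

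**Figure D2:**
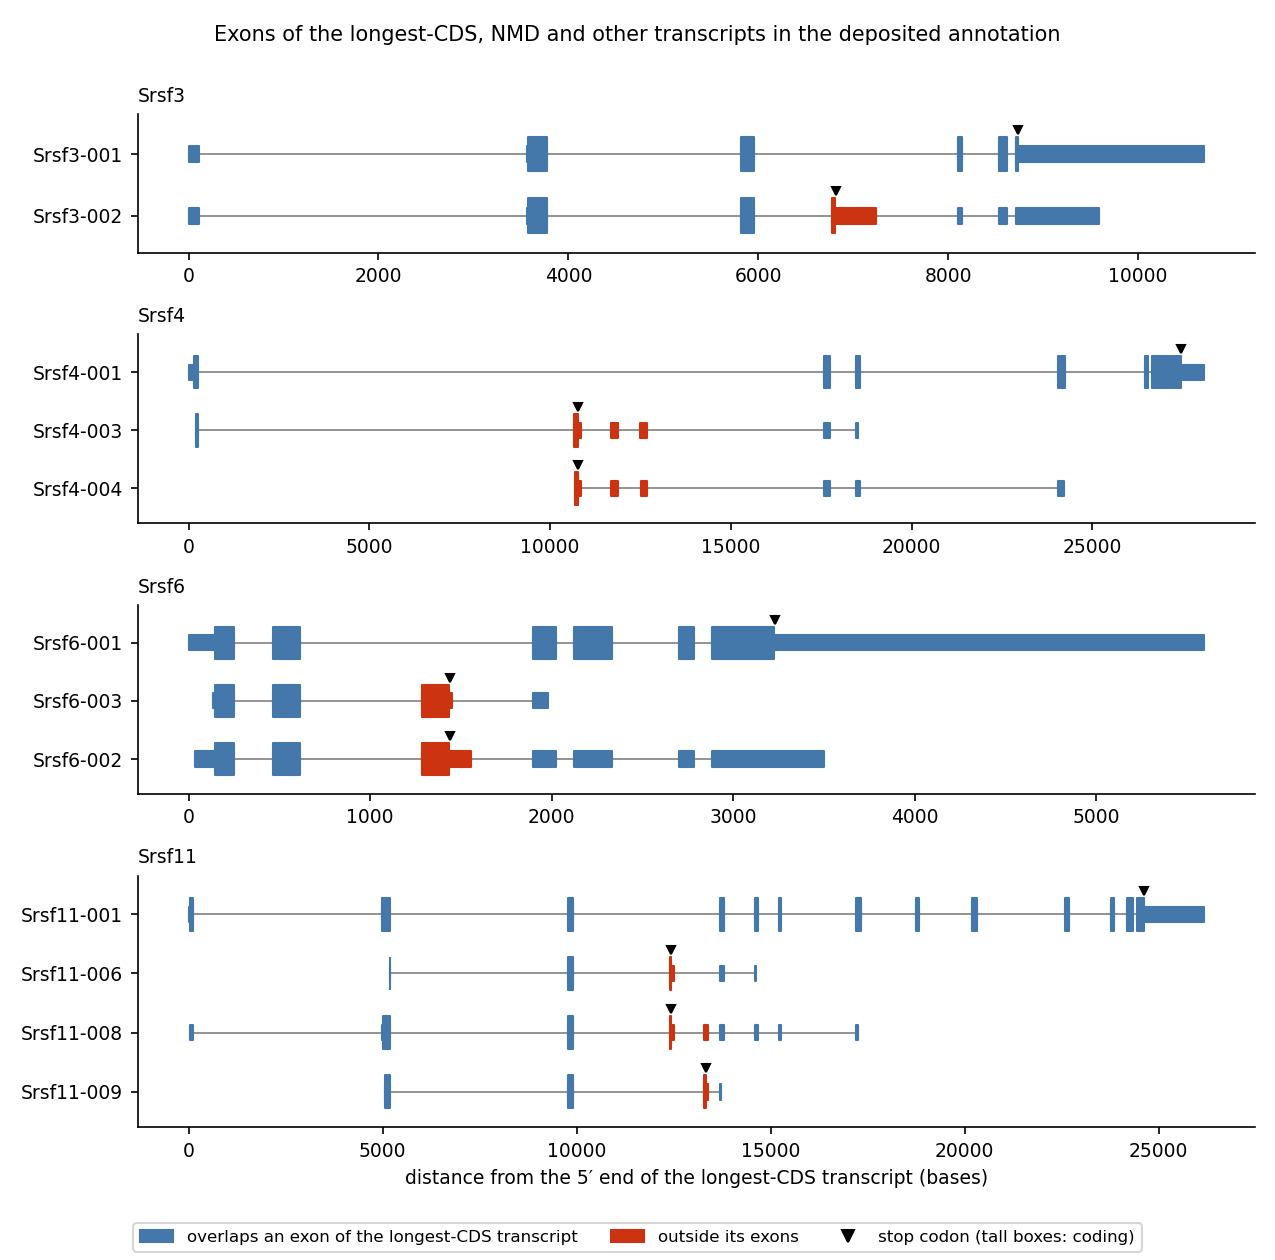
Exon maps of Srsf3, Srsf4, Srsf6 and Srsf11 in the deposited annotation: for each gene the longest-CDS transcript, its NMD transcripts and the short coding transcript Srsf6-003, with distance from the 5′ end of the first in bases. Red boxes lie outside the exons of the longest-CDS transcript, tall boxes are coding, and in these 4 genes each NMD stop codon (triangle) falls in a red box.

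Srsf6 has a poison exon that the NMD-only rule misses because of a biotype. Srsf6-002 includes a 268-base exon at chr2:162932815-162933082 in intron 2 of the gene (ENSMUSG00000016921, chr2:162931528-162937121, plus strand). It ends the frame after 135 of 339 codons, with 85 codons shared and 2 of 74 arginine-serine neighbours left. Its stop lies 534 bases before the last junction. Srsf6-003 uses the same acceptor and the same stop codon but another donor, which shortens the exon to 165 bases. Its last exon is the next one, so its stop lies 13 bases before the last junction, and it is classed as protein-coding. Srsf6-002 and Srsf6-003 both have support level 5. Against the reference transcript alone, Srsf6 and Srsf2 join the genes with a cassette, and the count becomes 4 of 10. This looser rule was chosen after seeing the data. No share of all protein-coding genes was computed by it, so the count has no background beside it.

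Srsf5 reached its stop through another acceptor. In Srsf5-010 (ENSMUSG00000021134, chr12:80945504-80950507, plus strand) exon 3 (chr12:80947116-80947381) begins 195 bases upstream of the coding exon and measures 266 bases, against 71. It keeps 42 codons of the protein and ends after 46 of 270. None of the 49 arginine-serine neighbours remains (0 neighbours). The stop lies 251 bases before the last junction.

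The NMD forms of Srsf1 and Srsf2, the founding members known as SF2/ASF and SC35, have no stop in a new exon inside a reference intron. In Srsf2 (ENSMUSG00000034120, chr11:116849901-116853094, minus strand) both NMD transcripts use the normal stop codon. Srsf2-002 encodes all 221 codons, but splicing downstream of the stop moves the last junction away, to 217 bases. In the reference transcript Srsf2-001 the distance is 7 bases. In Srsf1 (ENSMUSG00000018379, chr11:88047373-88053755, plus strand) both NMD transcripts skip exon 4 of the reference transcript Srsf1-006. They join exon 3, in Srsf1-005 from an earlier donor, to an exon at chr11:88049977-88050095, where the stop lies 80 bases before the last junction.

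The annotation gives one Srsf2 structure under different biotypes. Srsf2-201 has the same introns, stop codon and distance of 217 bases as Srsf2-002, yet it is classed as protein-coding. Such a shared intron chain was found for 1 of the 12 NMD transcripts here and for 1.05% of all NMD transcripts.

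The distance from stop to last junction separated the classes almost completely, which is how annotators assign them, so it is a description and not a finding. The usual limit is 50 bases. All 12 NMD transcripts exceeded it, with 67 (Srsf11-009) to 706 bases and a median of 234, as did 98.3% of all NMD transcripts, whose median was 332. Of the 24 protein-coding SR transcripts with a stop and a junction, 1 exceeded it, Srsf2-201, against 0.772% of all such transcripts. A further 2 had a stop 7 and 13 bases before the junction, and in 21 the stop lay in the last exon. The plot of stop positions shows these groups.

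**Figure D3:**
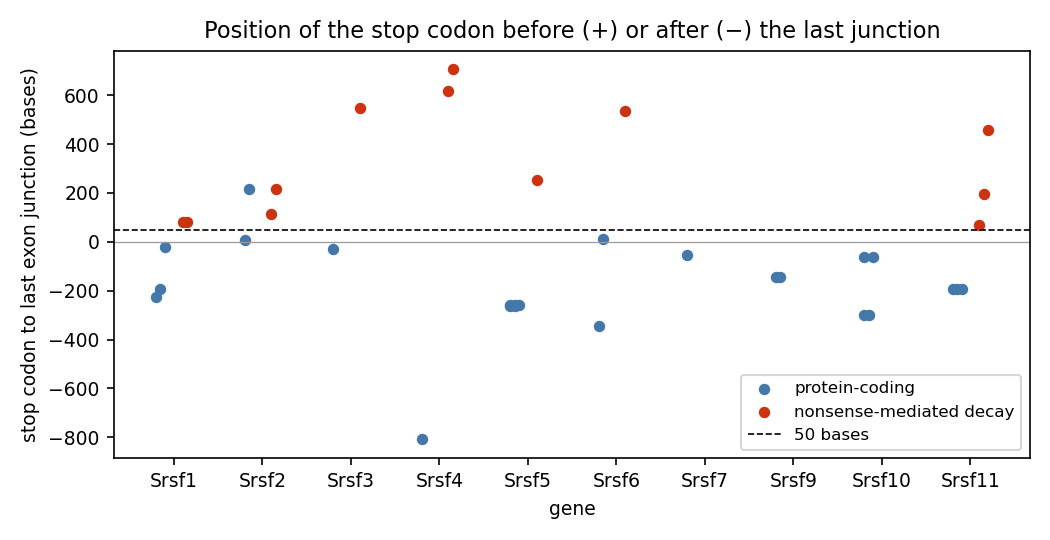
Bases from the last base of the stop codon to the last exon junction for each transcript of the 10 SR genes, with values below 0 where the stop lies in the last exon. All NMD transcripts lie above the dashed line at 50 bases, and Srsf2-201, at 217, is the one protein-coding transcript above it.

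Retained introns were common by biotype but seldom complete. The 22 retained-intron transcripts belonged to 7 genes, and 11 of them to Srsf11. Only 7 of the 22 ran across a whole protein-coding intron, close to the share among all such transcripts (30.0%). The other 15, including all 11 of Srsf11, began or ended inside an intron. Whole introns were retained in 5 genes, Srsf1, Srsf2, Srsf3, Srsf5 and Srsf6, against 12.8% of protein-coding genes and 34.6% of those with at least 5 transcripts. The single one of Srsf1 also lies within exons of the protein-coding transcripts Srsf1-001 and Srsf1-003, so keeping it is not particular to the retained-intron form. They numbered 15, of which 9 were among the 55 introns of the reference transcripts. The other 6 belong to other protein-coding transcripts, and most overlap one of the 9, so the 15 are not all separate stretches. In Srsf2 the 1059-base intron contains those of 686 and 269 bases. In Srsf6 the 1283-base intron contains those of 672 and 446 bases. In Srsf5 the introns of 112 and 115 bases start at the same base.

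Srsf5 had the most, 6 introns with the overlapping pair counted apart. Its intron 5 of 1229 bases was kept in each of its 3 retained-intron transcripts. Another of the 6, of 21 bases, separates the first exons of Srsf5-009 and lies within an exon of Srsf5-005. It also lies within the first exon of the protein-coding reference transcript, Srsf5-003. Srsf3-003 kept introns 3 and 4, Srsf6-004 kept intron 2 of 1283 bases, and Srsf2-004 kept the 1059-base intron that follows its stop codon. In Srsf3, Srsf2 and Srsf6 the kept intron is the one that holds the alternative exon. Bases of the alternative exon are thus part of the retained-intron form as well, whereas the intron on either side of it is not part of the spliced NMD form.

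Noncoding transcripts that contain the start codon of the reference transcript numbered 15, and reading from it ended inside an intron in all 15. The stop came 12 bases into intron 2 in Srsf5-007, 49 bases into intron 3 in Srsf3-003 and 188 bases into intron 2 in Srsf6-004. In 6 of the 15 it lay more than 50 bases before the last junction, with 2620 bases in Srsf3-003 and 1513 in Srsf6-004. These 6 meet the distance used for the NMD class but carry the biotype retained intron or, for Srsf10-005, processed transcript. The same counts were not made over all protein-coding genes, so these have no background beside them.

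Srsf10, which can act as a splicing repressor, thus had a form that meets this distance without the NMD label. In Srsf10-005 (ENSMUSG00000028676, chr4:135855747-135869908, plus strand) exon 2 is extended into intron 2, and the frame ends after 69 of 262 codons, 677 bases before the last junction. It also holds a 360-base exon at chr4:135858842-135859201. For Srsf9 (ENSMUSG00000029538, chr5:115327177-115333080, plus strand), processed transcripts of 901 and 474 bases stand beside 2 protein-coding ones of 1162 and 767 bases. Srsf7 (ENSMUSG00000024097, chr17:80200089-80207305, minus strand), which carries a zinc knuckle beside its RNA recognition motif, had 1 transcript of 8 exons and 238 codons.

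A second annotation of GRCm38, GENCODE M21, held all 72 of these transcripts, 66 with the same exons, among 85. It had 15 NMD transcripts in 9 genes, and the gene left without one was Srsf10. The exons it adds for Srsf7 and Srsf9 are printed because the deposited annotation does not hold them. The first is exon 4 of its Srsf7 NMD transcript, and the second is exon 2 of that of Srsf9.
Srsf7 exon 4: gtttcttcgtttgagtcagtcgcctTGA
Srsf9 exon 2: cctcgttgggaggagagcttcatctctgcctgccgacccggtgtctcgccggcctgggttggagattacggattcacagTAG
The Srsf7 exon (chr17:80204622-80205081) measures 460 bases, close to the 456 of Srsf3, its nearest relative, and also lies in intron 3. It leaves 137 of 238 codons and 7 of 55 arginine-serine neighbours. The Srsf9 exon (chr5:115328347-115328704) measures 358 bases. In the deposited annotation the first exon of the noncoding transcript Srsf9-003 ends at the same donor, position 115328704. With GENCODE M21 an NMD-only exon was present in 5 of the 10 genes (7.91% of protein-coding genes there), a cassette in 4 (5.63%) and a wholly retained intron in 6 (18.0%). An NMD transcript was present in 20.8% of protein-coding genes there.

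Some splice sites of the NMD exons recurred in other noncoding transcripts, and others did not. Srsf3-004 ends in an exon that starts at the acceptor of the Srsf3 poison exon, and Srsf4-002 starts with an exon that shares the donor of the third new exon. In Srsf11, Srsf11-003 shares the acceptor of the upstream cassette and Srsf11-021 the donor of the downstream one. In Srsf1, Srsf1-004 shares the donor of the exon with the stop and the acceptor of the next exon. No noncoding transcript shared the donor of the Srsf3 or Srsf6 exon, the acceptor of the Srsf5 exon, or the remaining sites of Srsf4 and Srsf11. How often sites recur over all genes was not computed. Where a retained-intron transcript runs across a site, the intron sequence beside it could be read. These windows are printed to show the sites, with exon bases in capitals: 20 intron and 3 exon bases for an acceptor, 3 exon and 6 intron bases for a donor.
Srsf3-002 exon 4 acceptor: aaaaatgaaccccgttacagAGT
Srsf3-002 exon 4 donor: CTAgtaagt
Srsf6-002 exon 3 acceptor: ttgatgtttcaatttgaaagTGA
Srsf6-002 exon 3 donor: GATgtaagt
Srsf11-009 exon 3 acceptor: tttttctgtgtgctttatagTGA
Srsf11-009 exon 3 donor: CAGgtgatg
All 6 have the usual ag or gt at the intron end. Acceptors are usually preceded by a run of pyrimidines. Of the 20 intron bases, 8 were C or T for Srsf3, 10 for Srsf6 and 14 for Srsf11.

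Except for Srsf7, a gene-level value of these genes would mix annotated forms that make protein with forms that do not. Exon bases found in no protein-coding transcript made up 60.6% of Srsf11, 58.5% of Srsf5 and 49.8% of Srsf3. The share was 36.6% in Srsf4, 32.3% in Srsf2 and 23.2% in Srsf6. It was lower in Srsf10 (16.6%), Srsf9 (8.75%) and Srsf1 (2.66%), and 0 in Srsf7. Of all protein-coding genes 56.6% had none, and 2.43% had a share at least as large as that of Srsf11. Genes with at least 5 transcripts were not taken apart for these shares. To the protein-coding exon bases, the NMD transcripts added 589 in Srsf4, 456 in Srsf3, 226 in Srsf11, 195 in Srsf5 and 103 in Srsf6. Those of Srsf3, Srsf5, Srsf6 and Srsf11 all lie in retained-intron transcripts as well, as do part of those of Srsf4. They are thus not particular to the NMD forms. Beside 72 junctions of protein-coding transcripts, the NMD transcripts had 17 that no protein-coding transcript holds. Of the 17, 13 occurred in NMD transcripts alone, and 4 were shared with a retained-intron transcript, 1 each in Srsf1, Srsf3, Srsf4 and Srsf11. The 13 fell in Srsf4 and Srsf11 (4 each), Srsf1 (2), and Srsf3, Srsf5 and Srsf6 (1 each). Srsf2 had 0, so no junction is particular to its NMD transcripts.

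**Figure D4:**
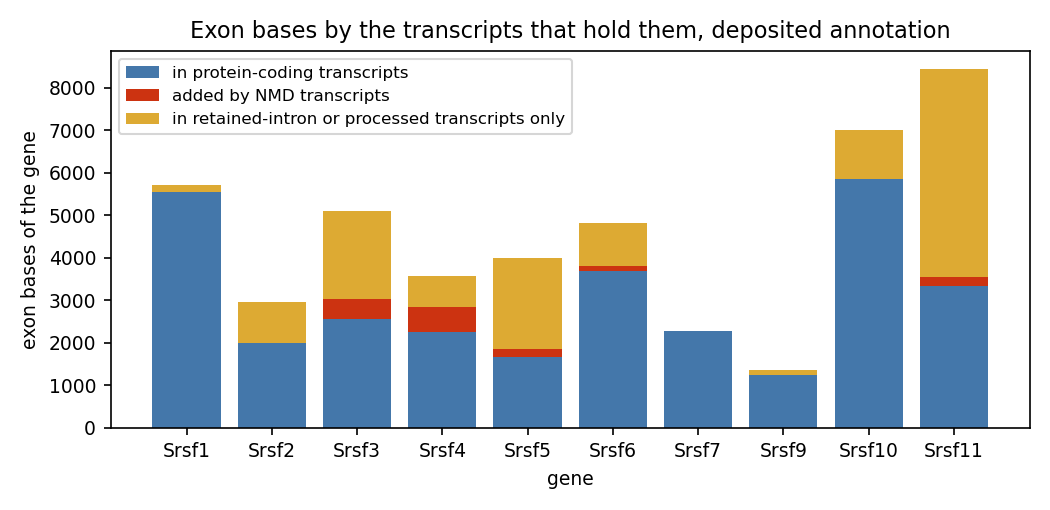
Exon bases of each SR gene in the deposited annotation (vertical axis, bases covered by any transcript), divided into those of protein-coding transcripts, those that NMD transcripts add, and the rest. Bases drawn as added by NMD transcripts can also lie in retained-intron transcripts. Bases outside protein-coding transcripts reach 60.6% of the total in Srsf11 and are 0 in Srsf7.

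The pathway around the SR proteins was described with 4 further lists. Of 10 other SR and SR-like genes, with a median of 4.5 transcripts, 4 had an NMD transcript. The share was 14.4% of all protein-coding genes and 38.0% of those with at least 5 transcripts. Each of these 4 had a cassette, against 3.76% of all protein-coding genes and 10.2% of those with at least 5 transcripts. They were Son, Srrm1, Srrm2 and Tra2b, whose product is a close relative of the SR proteins. Srrm1 and Srrm2 had 2 cassettes each. Of 20 hnRNP and core splicing factors, with a median of 7.5 transcripts, 7 had an NMD transcript, near the 38.0% of genes with at least 5 transcripts. An NMD-only exon was present in 4 of the 20, against 5.44% of all protein-coding genes and 14.3% of those with at least 5 transcripts. Hnrnpd had 2 such exons, and Hnrnpl, Sf3b1 and Sf1, a branch-point binding protein, had 1 each. Among 10 kinase and transport genes, with a median of 10.5 transcripts, 7 had an NMD transcript, against 38.0% of genes with at least 5 transcripts. An NMD-only exon was present in 2, against 14.3% of genes with at least 5 transcripts. These 2 were Clk4, a kinase of SR proteins, with 2 exons and Tnpo3, which imports SR proteins into the nucleus, with 1. Of the 15 NMD factors, 2 (Smg5 and Smg6) had an NMD transcript, near the background of 14.4%, and 0 had an NMD-only exon. A wholly retained intron was present in 7 of the 10 kinase and transport genes, against 12.8% of all protein-coding genes and 34.6% of those with at least 5 transcripts. It was present in 2 of the 15 NMD factors, near the share over all genes.

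**Figure D5:**
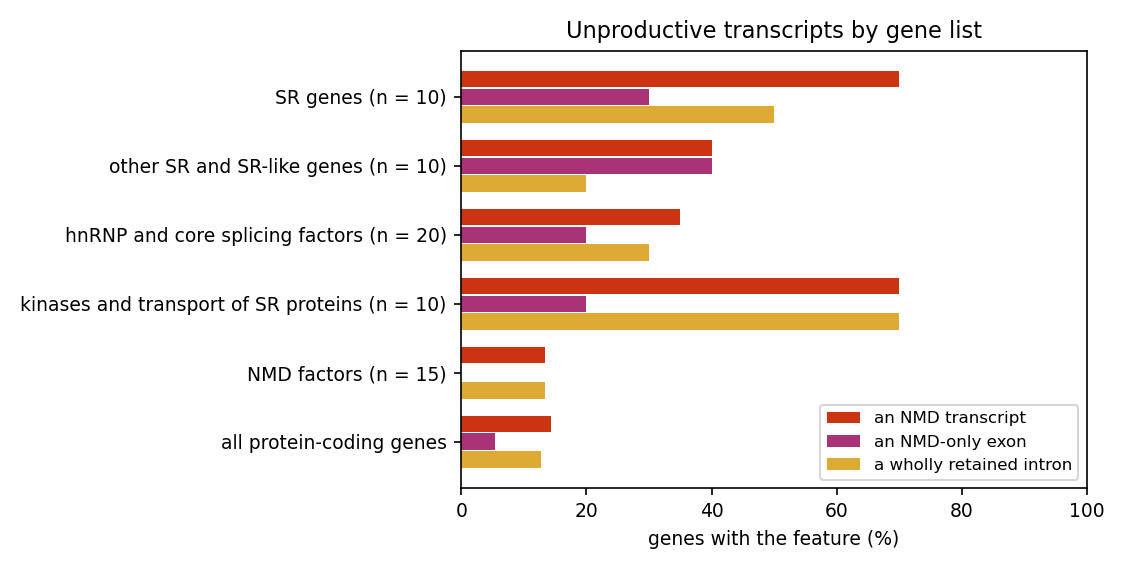
Share of genes (horizontal axis, %) with an NMD transcript, an NMD-only exon or a wholly retained intron in the 10 SR genes, 4 related lists and all protein-coding genes of the deposited annotation. SR genes and the kinase and transport list have 7 of 10 genes with an NMD transcript, against 14.4% of all protein-coding genes. In genes with at least 5 transcripts, not drawn here, the share was 38.0%.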

How the data were processed

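The study deposited mouse gene models as a GTF file, common to its libraries. The coordinates of the deposited models are 1-based starts and ends on GRCm38, and 0 columns carry library values. CASAVA 1.8, TopHat2, Bowtie2, Cufflinks and FastQC, and the build names GRCm38 and mm10, appear in the submitters' processing notes, without roles. No source used here states the release of the gene models.

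Transcripts, exons, coding sequence and stop codons were read with Python 3.11.15. An NMD-only exon shares no base with a protein-coding exon of its gene. A retained intron counted when an exon of a retained-intron transcript ran across a whole protein-coding intron. Distances exclude the stop codon. Sequences and their translations came from GENCODE M21 transcripts matched by transcript identifier, and all 36 annotated stop codons read were TAA, TAG or TGA. Functions were tested on simulated data, where all 400 gene models were recovered. Exact 95% binomial intervals (scipy 1.17.1) served to judge shares.

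Members and lists were chosen with earlier results of these data known. All 10 SR genes are named, and in each further list up to 3 genes with the most NMD-only exons. Tra2b, Sf3b1, Smg5 and Smg6, outside this rule, were named after their values were seen, to complete a count. Comparisons between libraries were not made.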

Additional observations from a re-analysis of the deposited data

How the results depend on the processing

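Support levels, carriers other than NMD transcripts, and cassettes against the longest-CDS transcript were chosen after seeing the data. NMD-only exons numbered 8, against 33 when only exact coordinates had to differ, 2 with NMD transcripts of support level 1 to 3 and 19 when retained-intron and processed transcripts could carry the exon. Genes with such an exon numbered 3, against 7 by exact coordinates, 6 against the longest-CDS transcript, 5 in GENCODE M21 and 7 with the added carriers. Except for GENCODE M21, no share of all protein-coding genes was computed under these alternatives, so their counts have no background beside them. Genes with a cassette numbered 2, against 4 in GENCODE M21 and 4 against the longest-CDS transcript. Retained introns numbered 15, against 9 for introns of the longest-CDS transcript. The higher counts by exact coordinates include exons that differ only at a transcript end, and the lower ones rest on fewer transcripts by construction.

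The background shares rose in genes with at least 5 transcripts, to 38.0% for an NMD transcript, 14.3% for an NMD-only exon, 10.2% for a cassette and 34.6% for a retained intron. In GENCODE M21 they were 20.8%, 7.91%, 5.63% and 18.0%, and the cause was not tested. Transcripts with a stop over the limit numbered 13, and 13 to 16 under the 3 alternatives. No paired analysis was possible because these results come from gene models and not from libraries, and for the same reason no library could be left out. Depth limits nothing printed here.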
